A study of Homo sapiens with 12 samples.

Results

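CXCL12 and its receptors CXCR4 and ACKR3 were examined in C4-2 prostate cancer cells in which the adaptor paxillin had been depleted and the androgen dihydrotestosterone (DHT) had been added or withheld. The genes were taken by symbol, giving 3 of the 56269 gene symbols in the count table. All 3 passed the filter on low counts that left 16115 genes for testing. For CXCR4 only 5 of the 12 libraries held at least 10 counts.

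C4-2 is a castration-resistant line derived from LNCaP, a human prostate cancer line. All cells were transfected with siRNA for 48 h, kept without serum for 12 h and then treated for 24 h. The 4 groups, with 3 libraries each, were nonspecific siRNA with ethanol vehicle, nonspecific siRNA with 2.5 nM DHT, paxillin siRNA with ethanol vehicle, and paxillin siRNA with 2.5 nM DHT. A single cell line was used, and no label states that the replicates came from separate cultures. The p-values therefore measure the spread between these libraries, which may be technical.

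CXCL12 is a secreted chemokine that binds both receptors. CXCR4 couples to inhibitory G proteins and drives migration, and CXCR4-expressing prostate cancer cells are known to home to bone marrow, whose stroma secretes CXCL12. ACKR3, formerly named CXCR7, binds the same ligand, signals mainly through arrestins rather than G proteins, and scavenges CXCL12 from the cell surface. Paxillin, encoded by PXN, is a focal adhesion adaptor whose tyrosine phosphorylation is a known downstream event of CXCR4 stimulation.

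Library totals ran from 11944906 counts, in replicate 1 of nonspecific siRNA with vehicle, to 32040465, so that 1 count equalled 0.0328 to 0.0815 CPM, the unit of counts relative to the scaled library total. PXN lay at 127 to 146 CPM in the group means of the nonspecific groups and at 11.6 to 13.8 CPM in those of the paxillin siRNA groups. It was 10.6-fold lower with paxillin siRNA in vehicle and 10.8-fold lower in DHT. All 10 luminal prostate markers were detected, with summed levels of 7550 to 9698 CPM in vehicle libraries and 16120 to 18167 CPM in DHT libraries. All 10 leukocyte markers stayed under 1 CPM in every library, and CD3E was at 0 in all 12. Of 10 stromal markers, 6 stayed under 1 CPM everywhere, DCN, LUM and PDGFRA among them, while COL1A1, COL3A1, PDGFRB and ACTA2 did not. Of 8 endothelial markers only VWF, and of 5 basal markers only DST, exceeded 1 CPM in any library.

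In the GENCODE 29 annotation of GRCh38, CXCL12 lies on the minus strand of chromosome 10, from 44370165 to 44386493. CXCR4 lies on the minus strand of chromosome 2, from 136114349 to 136118165, and ACKR3 on the plus strand of chromosome 2, from 236567787 to 236582358. No other annotated gene overlapped any of the 3. The RefSeq promoter table (GRCh38.p14) matched 2 of them, CXCL12 and CXCR4. Because CXCL12 rose with DHT and CXCR4 did not pass the test, the 250 bases before the transcription start of each are shown, 5′ to 3′ in the direction of transcription, CXCL12 at chr10:44385098-44385347 and the first listed CXCR4 start at chr2:136118150-136118399, both on the minus strand. The RefSeq start of CXCL12 differs from the GENCODE gene end at 44386493, so this CXCL12 window lies inside the GENCODE span given above. Capitals mark the GC box GGGCGG and the TATA box TATAAA on either strand.
CXCL12: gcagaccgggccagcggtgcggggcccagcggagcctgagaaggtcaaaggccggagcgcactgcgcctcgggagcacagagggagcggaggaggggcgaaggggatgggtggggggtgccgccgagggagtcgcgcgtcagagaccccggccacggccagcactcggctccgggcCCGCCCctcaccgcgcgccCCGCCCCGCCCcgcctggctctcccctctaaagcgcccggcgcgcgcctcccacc
CXCR4: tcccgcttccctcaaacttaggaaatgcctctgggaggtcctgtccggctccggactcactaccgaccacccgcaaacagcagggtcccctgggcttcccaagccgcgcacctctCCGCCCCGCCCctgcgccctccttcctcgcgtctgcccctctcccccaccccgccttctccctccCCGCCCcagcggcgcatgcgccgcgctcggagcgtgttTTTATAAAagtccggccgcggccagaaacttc
The CXCL12 window was 78.0% G or C and the CXCR4 window 68.0%, beside a median of 58.0% over 35116 promoters. Each window held 3 GC boxes, all on the antisense strand, and 42.6% of all promoters held at least 1. The TATA box occurred in the CXCR4 window, as a sense match overlapping an antisense match, and in 10.7% of all promoters. The windows of CXCR4 starts 2 and 3, not shown, were 55.6% and 51.6% G or C. They held 0 and 1 GC boxes and no TATA box. These matches describe the letters of these windows only.

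The ligand CXCL12 rose with DHT under both siRNAs, and less CXCL12 was present with paxillin siRNA than with nonspecific siRNA once DHT had been added. With nonspecific siRNA and vehicle, the 3 libraries held 17.0, 12.0 and 10.6 CPM of CXCL12, replicates 1 to 3 in that order here and below. With nonspecific siRNA and DHT they held 77.0, 65.5 and 59.2 CPM. The lowest DHT library thus stood above the highest vehicle library. With paxillin siRNA, CXCL12 lay at 13.1, 9.19 and 7.86 CPM in vehicle and at 38.3, 29.004 and 28.98 CPM in DHT, again without overlap. Replicate 1 was the highest library in all 4 groups. In raw counts CXCL12 ran from 208 to 1798 a library. The library is bulk RNA, in which fewer cells of a type and less RNA per cell cannot be told apart.

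**Figure D1:**
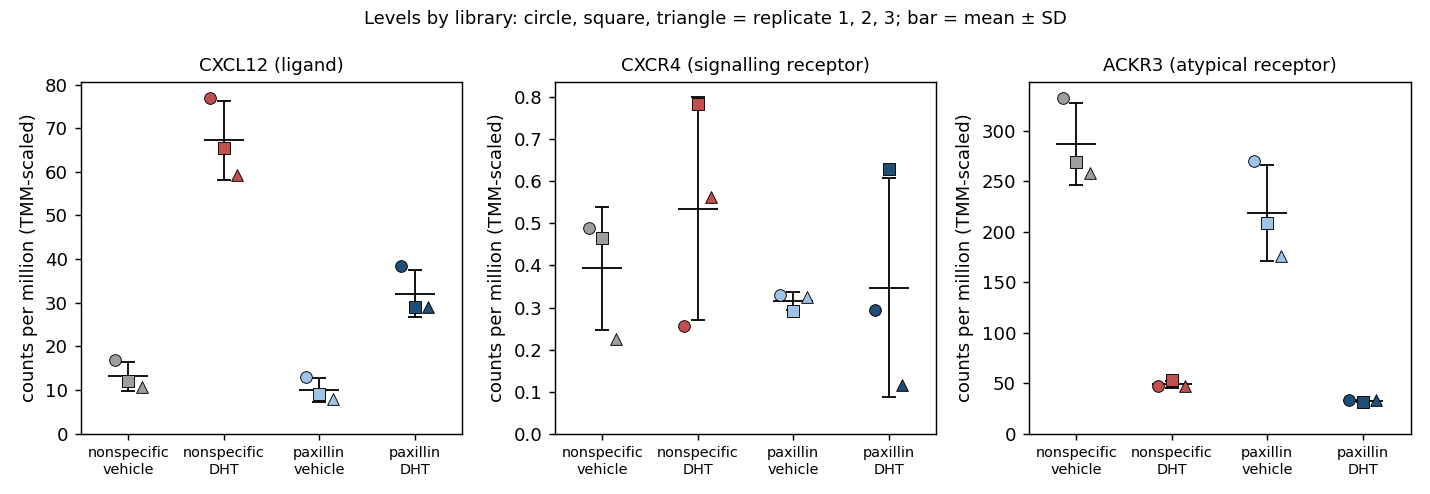
Levels of CXCL12, CXCR4 and ACKR3 in CPM (TMM-scaled, linear axes from 0) in each library of the 4 groups. Markers are libraries by replicate number, and bars are group means ± SD, n = 3. CXCL12 was highest in nonspecific siRNA with DHT, ACKR3 highest in the vehicle groups, and CXCR4 stayed under 1 CPM in every library.

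The group means of CXCL12, highest to lowest, were 67.2 ± 9.04 CPM (SD, n = 3) for nonspecific siRNA with DHT, 32.1 ± 5.40 for paxillin siRNA with DHT, 13.2 ± 3.34 for nonspecific siRNA with vehicle and 10.0466 ± 2.72 for paxillin siRNA with vehicle. Only the last 2 groups overlapped in range. DHT raised CXCL12 5.26-fold under nonspecific siRNA, a log2 fold change of 2.39 ± 0.17 (SE), with an adjusted p of 4.86e-09 by the edgeR quasi-likelihood test with Benjamini-Hochberg adjustment over all genes tested. Under paxillin siRNA the rise was 3.19-fold, 1.67 ± 0.17 on the log2 scale, with an edgeR adjusted p of 4.70e-07. DHT changed many genes in this line, and the 2 of 3 called genes here, CXCL12 and ACKR3, stand beside 40.5% of all genes called under nonspecific siRNA and 38% under paxillin siRNA. Those calls split into 3481 higher (21.6%) and 3053 lower (18.9%) under nonspecific siRNA, and 3234 higher (20.1%) and 2886 lower (17.9%) under paxillin siRNA. With upper-quartile scaling the splits were 2707 to 3896 and 2262 to 3935. By size of change, 173 called genes rose more than CXCL12 under nonspecific siRNA and 292 under paxillin siRNA.

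Paxillin siRNA lowered CXCL12 in the presence of DHT. Every paxillin library with DHT lay below every nonspecific library with DHT, and the fitted level was 2.09-fold lower, a log2 difference of -1.06 ± 0.16 with an edgeR adjusted p of 0.000295. In vehicle the ranges overlapped, and the log2 difference was -0.34 ± 0.19 (95% interval -0.74 to 0.06, edgeR adjusted p 0.225). With the replicate number as a block the vehicle difference was -0.38, with an edgeR adjusted p of 0.00329, and over all alternatives the adjusted p ran from 0.00329 to 0.621. Within each replicate number the paxillin library held 0.772, 0.768 and 0.741 times the CXCL12 level of its nonspecific counterpart in vehicle, and 0.498, 0.443 and 0.489 times in DHT. All 6 ratios were below 1, and the 3 in DHT were lower than the 3 in vehicle. Without replicate 1 of paxillin siRNA with vehicle, the vehicle difference was -0.57 (edgeR adjusted p 0.0313). Over the 4 groups the summed stromal markers ran at 41.4 to 51.6, 36.6 to 40.8, 39.1 to 40.3 and 27.7 to 30.5 CPM (nonspecific vehicle, nonspecific DHT, paxillin vehicle, paxillin DHT), most of it COL1A1, and their part in the CXCL12 difference was not tested. Within that list the levels differed widely. DCN and PDGFRA reached at most 1 and 2 counts in a library. COL1A1 had 584 to 1035 counts, ACTA2 19 to 90, PDGFRB 11 to 55 and COL3A1 2 to 50.

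The size of the DHT response of CXCL12 under each siRNA was compared as an interaction. DHT added 54.0446 CPM under nonspecific siRNA and 22.1 CPM under paxillin siRNA, 40.8% of the former. The ratio of DHT to vehicle within a replicate number was 4.54, 5.47 and 5.58 under nonspecific siRNA and 2.93, 3.16 and 3.69 under paxillin siRNA. The 2 sets of ratios did not overlap. The interaction was -0.72 ± 0.24 on the log2 scale (95% interval -1.24 to -0.21), with an unadjusted p of 0.00868 and an edgeR adjusted p of 0.419. With the replicate number as a block it was -0.69, with an edgeR adjusted p of 0.00530. The CXCL12 interaction was thus called in the blocked fit and not in the other, with the same sign in both. Over all its alternatives the adjusted p ran from 0.000108 to 0.700. With the filter on low counts, 0 of the 3 genes were called for the interaction by edgeR without the block or by limma-voom, and 0 by DESeq2, and 1, CXCL12, had an unadjusted p under 0.05. Without the filter, edgeR called the CXCL12 interaction with no block, at -0.73 (adjusted p 0.000108). Over all genes passing the filter edgeR called 8 of 16115, or 0.0496%, without the block, and 97 with it.

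**Figure D2:**
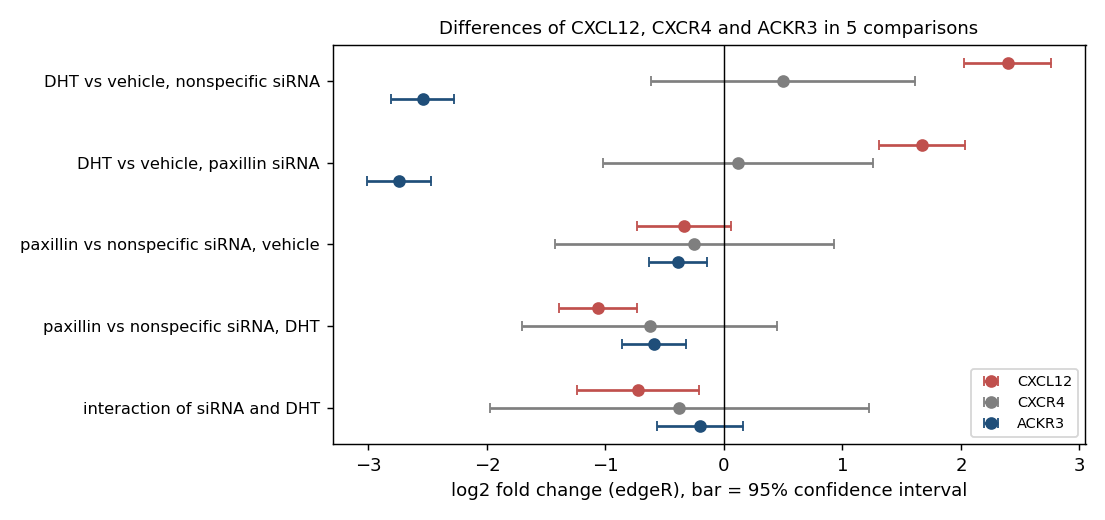
Log2 fold changes of CXCL12, CXCR4 and ACKR3 in the 5 comparisons, with 95% confidence intervals as bars, from edgeR without a replicate block. The DHT effects on CXCL12 and ACKR3 lie on opposite sides of 0, and every CXCR4 interval spans 0.

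CXCR4, the G protein-coupled receptor of the pair, was near the lower end of what these libraries could measure. Its raw counts with nonspecific siRNA were 6, 12 and 6 in vehicle and 6, 18 and 15 in DHT. With paxillin siRNA they were 10, 8 and 9 in vehicle and 9, 16 and 3 in DHT. The ranges of all 4 groups overlapped, with the highest and the lowest single library both in DHT groups. Pooled over the 3 libraries of a group, CXCR4 had 24, 39, 27 and 28 counts, in the same order of groups. That corresponds to 0.371 CPM (95% Poisson interval 0.238 to 0.552), 0.534 CPM (0.380 to 0.731), 0.316 CPM (0.208 to 0.460) and 0.343 CPM (0.228 to 0.496). The intervals cover counting error alone, and PCR copies of a molecule could not be told apart here.

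No difference in CXCR4 was detectable at this depth. DHT gave a log2 fold change of 0.50 ± 0.53 under nonspecific siRNA (95% interval -0.61 to 1.61, edgeR adjusted p 0.481). Under paxillin siRNA it gave 0.12 ± 0.54 (-1.02 to 1.26, edgeR adjusted p 0.882). Paxillin siRNA gave -0.25 ± 0.56 in vehicle (-1.43 to 0.93, edgeR adjusted p 0.801) and -0.63 ± 0.51 in DHT (-1.70 to 0.45, edgeR adjusted p 0.463). The upper bounds of the DHT intervals correspond to rises of 3.06-fold under nonspecific siRNA and 2.40-fold under paxillin siRNA, so changes of that size in CXCR4 were within the error. The sign of the DHT effect under paxillin siRNA rested on single libraries: without replicate 2 of paxillin siRNA with DHT, the library with 16 counts, it was -0.57 (edgeR adjusted p 0.522, beside 0.490 to 1 over all alternatives).

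ACKR3, the scavenging receptor, was the abundant receptor and fell with DHT. With nonspecific siRNA, its level in vehicle was 333, 268 and 258 CPM, and with DHT it was 46.9, 53.0 and 47.2 CPM. With paxillin siRNA, ACKR3 lay at 270, 208 and 176 CPM in vehicle and at 33.1, 31.3 and 33.4 CPM in DHT. Every DHT library was far below every vehicle library under either siRNA. The group means, highest to lowest, were 286 ± 40.5 CPM (SD, n = 3) for nonspecific siRNA with vehicle, 218 ± 47.6 for paxillin siRNA with vehicle, 49.0302 ± 3.44 for nonspecific siRNA with DHT and 32.6 ± 1.12 for paxillin siRNA with DHT. Only the first 2 groups overlapped in range.

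DHT lowered ACKR3 5.83-fold under nonspecific siRNA, a log2 fold change of -2.54 ± 0.13 with an edgeR adjusted p of 2.76e-11. Under paxillin siRNA it lowered ACKR3 6.70-fold, -2.74 ± 0.13 on the log2 scale, with an edgeR adjusted p of 1.15e-11. By size, 70 called genes fell more than ACKR3 under nonspecific siRNA and 43 under paxillin siRNA. The ratio of DHT to vehicle within a replicate number was 0.141, 0.197 and 0.183 under nonspecific siRNA and 0.122, 0.15007 and 0.189 under paxillin siRNA, so the 2 sets overlapped. The interaction was -0.20 ± 0.17 (95% interval -0.56 to 0.16), with an edgeR adjusted p of 0.769. In CPM, DHT removed more ACKR3 under nonspecific siRNA, a change of -237, than under paxillin siRNA, -186, which is 78.2% of it.

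ACKR3 was also lower with paxillin siRNA than with nonspecific siRNA. In DHT the level was 1.504-fold lower, a log2 difference of -0.59 ± 0.13 with an edgeR adjusted p of 0.00503, and the libraries of the 2 groups did not overlap. In vehicle the difference was -0.39 ± 0.12 with an edgeR adjusted p of 0.0251, though the ranges overlapped. Within a replicate number the paxillin library held 0.812, 0.776 and 0.684 times the ACKR3 level of the nonspecific library in vehicle, and 0.706, 0.590 and 0.706 times in DHT, all 6 below 1. The vehicle call rested on single libraries. It gave adjusted p of 0.130, 0.0956 and 0.146 by edgeR without replicate 1 of nonspecific siRNA with vehicle, and without replicates 2 and 3 of paxillin siRNA with vehicle, respectively. Of the 3 genes, 1 was called for paxillin siRNA in vehicle, where 20.5% of all genes were (10.7% higher, 9.78% lower), and 2 in DHT, where 13.3% were (6.34% higher, 7% lower). With the replicate block the counts over all genes in DHT rose from 2149 to 3486.

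To compare levels between the genes, CPM was divided by the length of each gene's exons, 6077 bases for CXCL12, 2224 for CXCR4 and 2258 for ACKR3. These lengths join the exons of all annotated transcripts, and which transcripts the cells used was not measured. In nonspecific siRNA with vehicle, the mean was 127 CPM per kb for ACKR3, 2.17 for CXCL12 and 0.177 for CXCR4. In nonspecific siRNA with DHT the means were 21.7 for ACKR3, 11.1 for CXCL12 and 0.240 for CXCR4. With paxillin siRNA they were 96.6, 1.65 and 0.142 in vehicle and 14.4, 5.28 and 0.156 in DHT, for ACKR3, CXCL12 and CXCR4. Per kb, ACKR3 was thus above CXCL12, and CXCL12 above CXCR4, in the means of all 4 groups. In the DHT groups the order of ACKR3 and CXCL12 depended on the lengths used. Without division by length, CXCL12 lay at 67.2 CPM beside 49.0 for ACKR3 in nonspecific siRNA with DHT. In paxillin siRNA with DHT they lay at 32.1 and 32.6 CPM.

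The opposite DHT effects on ligand and scavenger receptor moved their ratio further than either gene. The ratio of CXCL12 to ACKR3 per kb was 0.0189, 0.0166 and 0.0153 in nonspecific siRNA with vehicle and 0.611, 0.459 and 0.466 with DHT. With paxillin siRNA it was 0.0180, 0.0164 and 0.0166 in vehicle and 0.431, 0.344 and 0.323 in DHT. The 2 vehicle groups overlapped, both DHT groups lay far above them, and the paxillin DHT libraries lay below all nonspecific DHT libraries. The gap between the 2 receptors was smaller with DHT. ACKR3 per kb exceeded CXCR4 per kb by 670, 569 and 1125 times in nonspecific siRNA with vehicle, and by 180, 66.5 and 82.7 times with DHT. With paxillin siRNA the factors were 809, 704 and 532 in vehicle and 110, 48.9 and 282 in DHT. The vehicle libraries stood above the DHT libraries in each case, and the factors spread widely within a group, CXCR4 having 3 to 18 counts a library. These ratios combine genes already described, so no test was made on them.

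**Figure D3:**
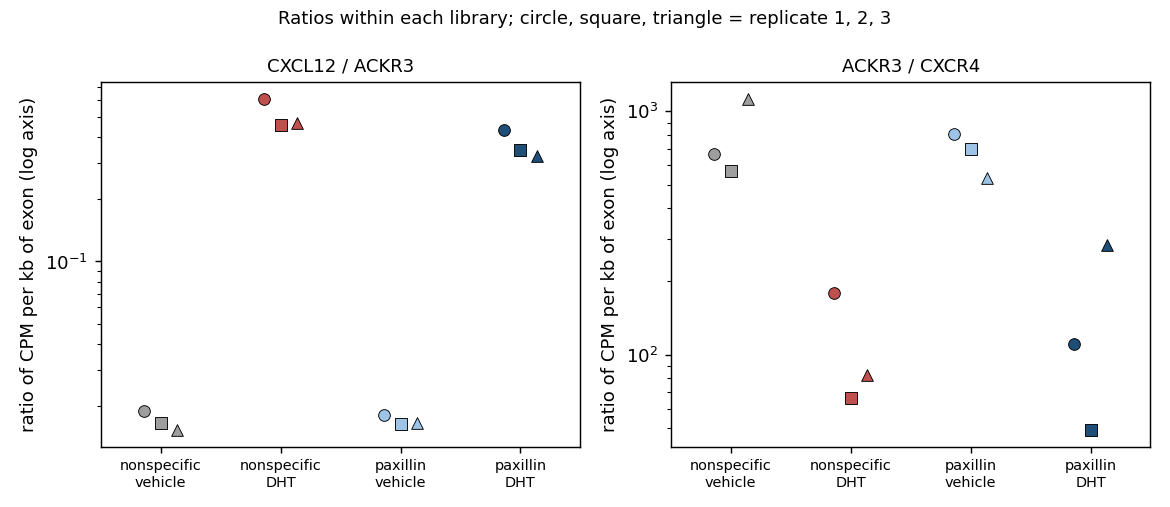
Ratios of CPM per kb of exon within each library on log axes, for CXCL12 over ACKR3 and for ACKR3 over CXCR4. Markers are libraries by replicate number. DHT libraries lie above vehicle libraries for CXCL12 over ACKR3 and below them for ACKR3 over CXCR4.

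Other ligands and modulators of the axis differed widely in level. Of 17 listed genes, 7 were tested and the other 10 had too few counts, among them CXCL11, a chemokine that also binds ACKR3. UBB and HMGB1, named after their values were seen, had group means of 712 to 818 and 187 to 209 CPM. With DHT under nonspecific siRNA 1 rose and 2 fell, and under paxillin siRNA 1 rose and 3 fell, beside 40.5% and 38% of all genes called. The list's median log2 fold changes were -0.14 and -0.22, beside -0.01 over all genes tested in both. DPP4, the protease that cleaves and inactivates CXCL12, held 77.0, 76.0 and 72.1 CPM in nonspecific siRNA with vehicle and 166, 180 and 194 CPM with DHT. It rose 2.40-fold under nonspecific siRNA (edgeR adjusted p 4.62e-09) and 2.74-fold under paxillin siRNA (edgeR adjusted p 5.71e-10). SDC4, a heparan sulfate proteoglycan of a class that binds CXCL12, fell 3.73-fold and 3.56-fold (edgeR adjusted p 1.42e-07 and 1.78e-07), from means of 138 and 148 CPM. GPC1, a glypican, fell by 0.31 and 0.42 on the log2 scale, and SDC1, another syndecan, fell by 0.47 under paxillin siRNA. For paxillin siRNA against nonspecific siRNA edgeR called 0 of the 7 in either treatment, with 1 in vehicle and 2 in DHT at an unadjusted p under 0.05, as had 32.9% and 27.9% of all genes. DESeq2 called 0 and 1, limma-voom 0 and 0, and the replicate block 1 and 2. The shares of all genes given here are from edgeR without the block.

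**Figure D4:**
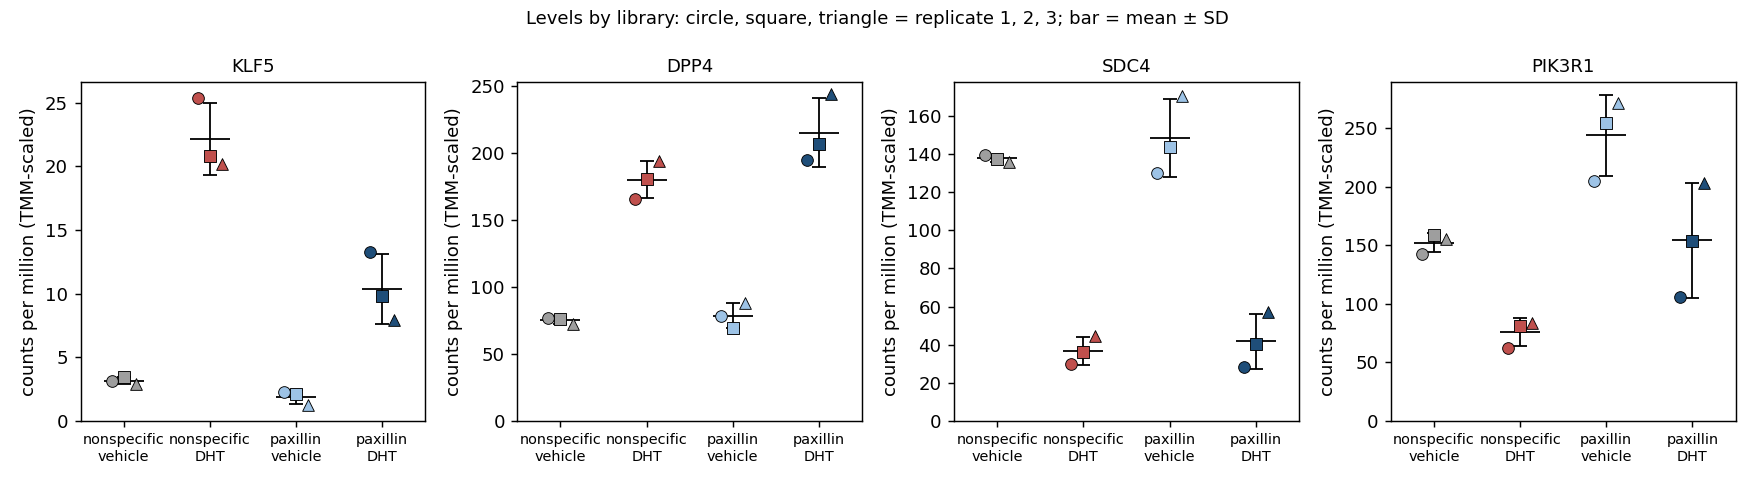
Levels in CPM (TMM-scaled, linear axes from 0) of KLF5, DPP4, SDC4 and PIK3R1 in each library. Markers are libraries by replicate number and bars are group means ± SD, n = 3. With DHT, KLF5 and DPP4 lie higher and SDC4 and PIK3R1 lower than in vehicle under the same siRNA.

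The signal transducers that act downstream of CXCR4 moved in both directions. Of 47 genes, 41 were tested. DHT called 12 higher and 13 lower under nonspecific siRNA, and 13 higher and 10 lower under paxillin siRNA, and with upper-quartile scaling 9 and 15, and 7 and 12. Those 25 and 23 calls stand beside background shares of 40.5% and 38%, and the list's medians were 0.05 and 0.10. STAT3, a transcription factor activated by JAK kinases, rose by 0.44 and 0.60 on the log2 scale, and GNAI1, an inhibitory G protein alpha subunit, rose by 0.79 and 1.17. BCAR1, the adaptor p130Cas, rose by 0.38 under nonspecific siRNA, and GNAQ, a Gq alpha subunit, by 0.59 under paxillin siRNA. VAV3, a guanine nucleotide exchange factor, fell by 2.46 and 3.60, and PLCB2, a phospholipase C, by 1.68 and 1.90. PIK3R1, the regulatory subunit of PI3-kinase, fell by 1.01 and 0.66 (edgeR adjusted p of these 3 between 8.22e-08 and 0.00380). VAV3 and PLCB2 ended at low levels, with DHT means of 0.30 and 0.68 CPM under nonspecific siRNA and 0.70 and 0.97 CPM under paxillin siRNA. With nonspecific siRNA, VAV3 had 15, 45 and 51 counts in vehicle and 8, 7 and 7 in DHT.

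Paxillin siRNA called 7 transducers higher and 9 lower in vehicle, and 7 higher and 4 lower in DHT, beside 20.5% and 13.3% of all genes. VAV3 rose 5.05-fold in vehicle (edgeR adjusted p 5.26e-05), from 1.22, 1.74 and 1.92 CPM to 4.54, 8.28 and 12.9 CPM. PIK3R1 rose in both treatments, by 0.68 in vehicle and 1.02 in DHT (edgeR adjusted p 0.00762 and 0.000729). PLCB2 rose by 0.74 in vehicle. In DHT, CRK, an adaptor that binds phosphorylated paxillin, rose by 0.56, and PTK2B, the focal adhesion kinase relative PYK2, by 0.46. GNG5, a G protein gamma subunit, fell by 0.90 and 0.70 (edgeR adjusted p 1.39e-05 and 0.000175), and NFKB1, a subunit of NF-kappaB, by 0.36 and 0.20. GNAQ fell by 0.40 in vehicle, PLCB4, a phospholipase C, by 0.30 in DHT and MAPK3, the kinase ERK1, by 0.20 in DHT. MAPK3 fell outside the naming rule and is given because it completes the 4. Several of these calls were lost when 1 library was left out. In vehicle, GNAQ lost its call without any 1 of the 6 vehicle libraries or without paxillin DHT replicate 2 (edgeR adjusted p 0.0502 to 0.168), and with no filter or the compared groups only (0.0645 to 0.106). PLCB2 lost it without nonspecific vehicle replicate 2 or 3 or paxillin vehicle replicate 3 (0.0697 to 0.102). In DHT, NFKB1 lost it without any 1 of the 3 nonspecific DHT libraries, paxillin vehicle replicate 2 or paxillin DHT replicate 2 or 3 (edgeR adjusted p 0.0587 to 0.174), and with no filter, limma-voom or the compared groups only (0.0539 to 0.179). MAPK3 lost it without nonspecific DHT replicate 2 or 3 or any 1 of the 3 paxillin DHT libraries (edgeR adjusted p 0.0522 to 0.159), and with no filter (0.121).

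Genes of receptor desensitization and trafficking were called in both directions with DHT, and the split depended on the scaling. Of 30 genes, 27 were tested. DHT called 9 higher and 5 lower under nonspecific siRNA and 9 higher and 2 lower under paxillin siRNA, beside 40.5% and 38% of all genes called. With upper-quartile scaling the counts were 5 and 8, then 6 and 6, and with the replicate block 9 and 8, then 11 and 4. The shares of 40.5% and 38% are from TMM scaling without the block, not from these settings. The medians were 0.01 and 0.07. GRK2, a kinase that phosphorylates activated receptors, rose by 0.44 and 0.39 on the log2 scale (edgeR adjusted p 1.02e-05 and 3.66e-05), and RGS14, a regulator of G protein signalling, by 1.00 and 0.61. RGS2, of the same family, rose by 0.65 under nonspecific siRNA, and RAB5A, an early endosome GTPase, by 0.39 under paxillin siRNA. NEDD4, a ubiquitin ligase, fell by 0.98 and 0.71, while GRK5, another receptor kinase, fell by 0.79 and RGS19 by 0.47 under nonspecific siRNA. The 2 other genes called lower there, RGS12 at -0.30 and ARRB1, which encodes the adaptor arrestin, at -0.16, were named because they complete the count. RGS3 fell by 0.27 under paxillin siRNA. Of these, RGS2 lost its call without any 1 of the 3 nonspecific vehicle libraries or nonspecific DHT replicate 1 (edgeR adjusted p 0.0593 to 0.273), and with upper-quartile scaling or DESeq2. RGS19 lost it without replicate 2 or 3 of either nonspecific group (0.0566 to 0.0802), and RGS12 without nonspecific vehicle replicate 2 or 3 or nonspecific DHT replicate 3 (edgeR adjusted p 0.0540 to 0.111) and with no filter (0.0572). ARRB1 lost it without nonspecific vehicle replicate 1 or 3 or any 1 of the 3 nonspecific DHT libraries (edgeR adjusted p 0.0545 to 0.1398) and with no filter (0.230). RGS3 lost it without replicate 2 or 3 of paxillin vehicle, or replicate 1 or 2 of paxillin DHT (edgeR adjusted p 0.0534 to 0.196).

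Paxillin siRNA called 1 trafficking gene higher and 2 lower in vehicle, where 20.5% of all genes were called. With the block it called 2 and 5, which cannot be set beside that share, since the share is from the fit without the block. RGS14 rose by 0.42, while STAM2, an endosomal sorting adaptor, fell by 0.39 and ITCH, the ubiquitin ligase that marks CXCR4 for degradation, fell by 0.29. RGS14 lost its call without nonspecific vehicle replicate 2 (edgeR adjusted p 0.0575), and ITCH without nonspecific vehicle replicate 1 or paxillin vehicle replicate 3 (edgeR adjusted p 0.0530 to 0.108) and with no filter (0.0536). In DHT, where 13.3% of all genes were called, edgeR called 0 of 27, with 2 at an unadjusted p under 0.05, and DESeq2 and limma-voom called 0. The replicate block, which called more of all genes in DHT than the fit without it, called 1 higher and 1 lower. The 13.3% is from the fit without the block.

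**Figure D5:**
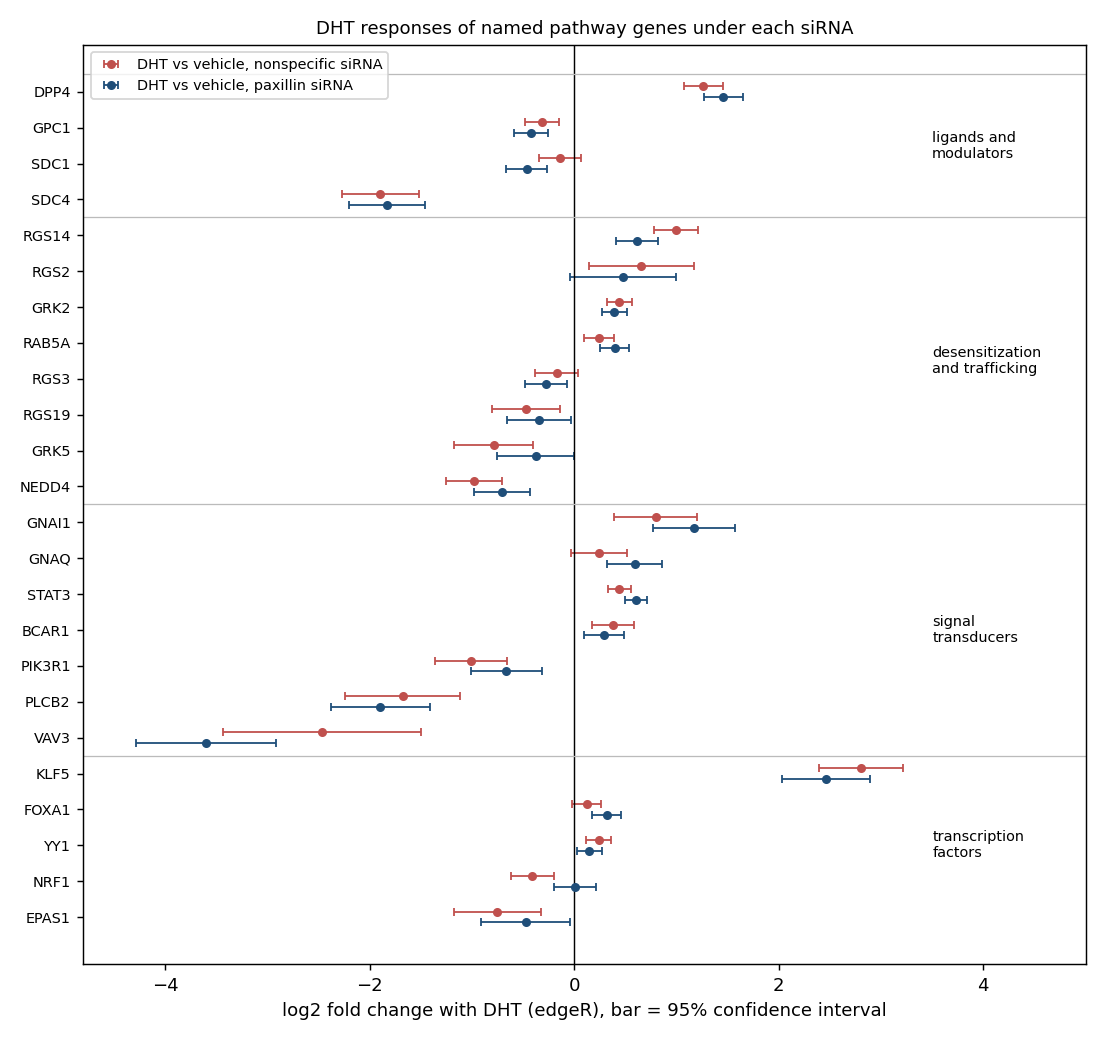
Log2 fold changes with DHT of the named pathway genes under nonspecific and paxillin siRNA, with 95% confidence intervals as bars, from edgeR. KLF5 and DPP4 lie highest, and VAV3, PLCB2 and SDC4 lowest under both siRNAs.

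Of 10 transcription factors known for acting on CXCR4 or ACKR3 expression, 8 were tested. DHT called 2 higher under each siRNA, beside 21.6% of all genes called higher under nonspecific siRNA and 20.1% under paxillin siRNA. Over all genes, 18.9% and 17.9% were called lower. KLF5, an epithelial zinc finger factor, had the largest change among the factors called. Its level was 3.10, 3.45 and 2.90 CPM in nonspecific siRNA with vehicle and 25.4, 20.8 and 20.2 CPM with DHT, and 2.27, 2.08 and 1.27 CPM against 13.3, 9.80 and 7.92 CPM under paxillin siRNA. DHT raised KLF5 7.01-fold and 5.51-fold (edgeR adjusted p 2.54e-09 and 2.79e-08), with no overlap between libraries. Paxillin siRNA lowered KLF5 2.13-fold in DHT (edgeR adjusted p 0.000366) and by 0.74 on the log2 scale in vehicle (edgeR adjusted p 0.0357). The vehicle call of KLF5 was lost without any 1 of the 3 nonspecific vehicle libraries or paxillin vehicle replicate 2 or 3 (edgeR adjusted p 0.0566 to 0.171), and with limma-voom (adjusted p 0.0886). YY1 rose by 0.24 and NRF1, EPAS1 (the hypoxia factor HIF-2alpha) and HIF1A fell by 0.41, 0.75 and 0.25 under nonspecific siRNA, and FOXA1, a pioneer factor, rose by 0.32 under paxillin siRNA. In vehicle, paxillin siRNA lowered NRF1 by 0.49, FOXA1 by 0.30 and HIF1A by 0.21 besides KLF5. Those 4 calls among 8 tested factors stand beside 9.78% of all genes called lower in vehicle. In DHT, KLF5 was the 1 factor called lower, beside 7% of all genes. EPAS1 lost its call without nonspecific vehicle replicate 3 (edgeR adjusted p 0.0695), and HIF1A lost the vehicle call without nonspecific vehicle replicate 2 or 3 or any 1 of the 3 paxillin vehicle libraries (edgeR adjusted p 0.0544 to 0.169), and with no filter or the compared groups only (0.0535 to 0.0669).

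Most other chemokines and chemokine receptors were too low to test. Of 40 other chemokines, 39 were not tested and 19 of these had 0 counts in all libraries. CXCL16 was the single one tested. It was not called by edgeR in any of the 5 comparisons, had no unadjusted p under 0.05, and was not called by DESeq2 or limma-voom. Of 21 other receptors, 19 were not tested, 5 of them at 0 counts. ACKR2, another atypical receptor that scavenges chemokines, had 10, 22 and 17 counts in nonspecific siRNA with vehicle and 10, 9 and 8 with DHT. Its log2 fold change was -1.03 (edgeR adjusted p 0.0315). ACKR2 was named because it was the single receptor called, and the call was lost with DESeq2, without the filter, and without nonspecific vehicle replicate 1 or 2 or any 1 of the 3 nonspecific DHT libraries (edgeR adjusted p 0.0520 to 0.115).

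For the interaction, edgeR called 0 genes of these 6 lists with or without the replicate block, and DESeq2 and limma-voom called 0. At an unadjusted p under 0.05 there were 1 of 7 modulators, 2 of 41 transducers, 3 of 27 trafficking genes and 2 of 8 transcription factors, beside 8.9% of all genes.

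Genes whose levels across the 12 libraries were most like those of the members were found by Pearson's r of log2 CPM among 10320 genes with a mean of at least 5 CPM, as a description, since all points share 4 groups and their libraries. For CXCL12 they were GPR158 (r 0.992), TNK2 (0.990), ESRP2 (0.989), C19orf48 (0.986) and PPM1K (0.984). GPR158, an orphan receptor, had group means of 18.3, 79.3, 12.6 and 47.3 CPM in nonspecific vehicle, nonspecific DHT, paxillin vehicle and paxillin DHT. For ACKR3 they were LRRN1 (0.995), SLC44A1 (0.995), LRRC8D (0.993), PAX1 (0.992) and ZNF703 (0.992). LRRN1, a leucine-rich repeat membrane protein, had group means of 93.9, 20.2, 76.7 and 13.6 CPM in the same order. For CXCR4 the highest r was 0.846, for LYPD8, and with 3 to 18 counts a library this is no finding.

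Nearest coding neighbours were compared for the same treatments. The neighbours of CXCL12, C10orf142 at 75.5 kb and TMEM72 at 525 kb, had at most 0.0428 CPM in any library and were not tested. The neighbour of ACKR3 on its left, IQCA1 at 60.2 kb, had at most 0.0388 CPM. COPS8, 503 kb to its right, lay at 47.9 to 63.2 CPM and was called only for paxillin siRNA in DHT, at 0.23 (edgeR adjusted p 0.0439), a call lost with upper-quartile scaling and without any 1 of 8 libraries, namely nonspecific vehicle 2, nonspecific DHT 1 and 2, paxillin vehicle 1, 2 and 3 and paxillin DHT 2 and 3 (edgeR adjusted p 0.0510 to 0.161). DARS, 128 kb from CXCR4, was not called in any of the 5 comparisons. THSD7B, 647 kb from CXCR4, had at most 1.71 CPM and fell by 1.12 with DHT under nonspecific siRNA and by 1.18 with paxillin siRNA in vehicle (edgeR adjusted p 0.0311 and 0.0395), and THSD7B lost the first call without replicate 1 or 2 of nonspecific vehicle or replicate 2 or 3 of nonspecific DHT (edgeR adjusted p 0.0643 to 0.123). It lost the second without nonspecific vehicle replicate 1 or 2, nonspecific DHT replicate 2 or any 1 of the 3 paxillin vehicle libraries (edgeR adjusted p 0.0516 to 0.136).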

How the data were processed

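RNA sequencing measured 12 libraries of C4-2 cells, made with a stranded kit per the labels' protocols. The authors deposited raw read counts per gene symbol, in whole numbers with unequal totals. Per the submitters' processing notes the tools were Trimmomatic 0.36, STAR 2.5.2b and featureCounts of Subread 1.5.0p3 with the build GRCh38. Neither the annotation release nor the strand setting is given in the sources used here.

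The software was edgeR 4.0.16 under R 4.3.3. Genes were filtered with filterByExpr (minimum count 10, minimum total 15), scaled by TMM and fitted with a quasi-likelihood model of 4 group means over all 12 libraries, and calls were made at a Benjamini-Hochberg adjusted p under 0.05 over 16115 genes. Levels are in CPM of the scaled totals. The pipeline was run on simulated data in which few genes changed and libraries were independent. That run does not bear on the scaling where many genes change, or on the pairing of replicate numbers. Each result was recomputed with upper-quartile scaling, RLE scaling, no filter, DESeq2 1.42.0, limma-voom (limma 3.58.1), a replicate block, the compared groups alone and leaving out each library. Named genes were the members, PXN, up to 3 largest called rises and falls per list at 1 CPM or more, nearest coding neighbours and the 5 most correlated genes, and exceptions are stated. The members and lists were chosen with earlier results of these data known. Results of 1 further listed gene are not reported here.

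The 4 groups carry the same replicate numbers in the titles. For 10701 genes, the correlation of group-centred values was 0.144 to 0.482 between the 18 library pairs of equal number, and -0.426 to 0.213 between the 36 pairs of unequal number. Because values were centred within each group, the lower range follows in part from the higher one and is not separate evidence. Libraries of equal number were on this ground taken as pairs, and the fit with the number as a block was run beside the main model, which has none. Unless another setting is named, p-values and calls are from the main model, which does not use this pairing. Replicates of a group were distinguishable from resampled copies (chi-square 5.67 to 17.0 for each degree of freedom), and none was merged.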

Additional observations from a re-analysis of the deposited data

How the results depend on the processing

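The DHT effects on CXCL12 and ACKR3 and the paxillin siRNA effects on both in DHT kept their direction and their call under all 19 alternatives. Log2 values ran from 2.26 to 2.57 and 1.52 to 1.91 for CXCL12 with DHT, -1.21 to -0.95 for CXCL12 with paxillin siRNA in DHT, -2.61 to -2.42 and -2.89 to -2.57 for ACKR3 with DHT, and -0.62 to -0.53 for ACKR3 with paxillin siRNA in DHT.

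CXCL12 with paxillin siRNA in vehicle was called without the filter (-0.32) and with the replicate block (-0.38), and ran from -0.57 to -0.16 leaving out single libraries. The CXCL12 interaction was called without the filter (-0.73) and with the replicate block (-0.69), and ran from -0.91 to -0.49 leaving out single libraries. ACKR3 with paxillin siRNA in vehicle was not called with the compared groups only (-0.39) and ran from -0.56 to -0.25 leaving out single libraries. CXCR4 changed sign for DHT under paxillin siRNA with limma-voom (-0.14) and ran from -0.57 to 0.51 leaving out single libraries, and its interaction from -1.07 to 0.0029. DESeq2 gave no adjusted p for that interaction, and with the compared groups only CXCR4 did not pass the filter for DHT under paxillin siRNA or for paxillin siRNA in vehicle. The cause was not tested.

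For the interaction, genes called numbered 142 without the filter, 54 by DESeq2, 0 by limma-voom and 97 with the replicate block. Leaving out single libraries gave 0 to 26, with 0 in 8 of the 12 cases, 4 without nonspecific DHT replicate 1 and 26 without paxillin vehicle replicate 1. For paxillin siRNA in DHT, genes called numbered 3486 with the block and 1178 to 2417 leaving out single libraries, the lowest being 1269 without nonspecific DHT replicate 2, 1386 without paxillin DHT replicate 2 and 1178 without paxillin DHT replicate 3. In vehicle they ran from 1848, without paxillin vehicle replicate 3, to 3524, and were 1966 without nonspecific vehicle replicate 2. The mean level of ACKR3 in paxillin siRNA with DHT was 31.4 CPM on unscaled totals against 32.6. The replicate block also called PXN lower with DHT, at -0.22 and -0.25, changed no other call of the 3 genes besides those of CXCL12 above, and lost no call of a named list gene in the comparison it was named for. The PXN interaction, -0.04, turned to 0.02, 0.12 and 0.08 without nonspecific DHT replicate 1, paxillin vehicle replicate 1 and paxillin DHT replicate 3.

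CXCR4, with 3 to 18 counts a library, limits what can be said of it at this depth.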

Other observations

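Among chemokines too low to test, CCL8, a monocyte attractant, had 0 counts in all 6 nonspecific siRNA libraries, and 5, 3, 10, 4, 4 and 6 counts in the 6 paxillin siRNA libraries, vehicle before DHT. CXCL10, an interferon-induced chemokine, had 1, 5 and 14 counts in paxillin siRNA with DHT and at most 2 in any other library. CXCL11 had 5, 4 and 2 counts in that group and at most 1 in any other library. These 3 were chosen after their values were seen, and no difference was tested for them. A count of 3 corresponds to under 1 CPM in every library, and the summed leukocyte markers were highest in the same group, at 0.748 to 0.885 CPM against 0.155 to 0.571 in the other 3 groups. The part of either in the other was not tested.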
